A study of Mus musculus with 10 samples.

Results

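Transcripts of the amyloid precursor protein family (App, Aplp1, Aplp2), of presenilin 2 (Psen2), of the brain apolipoproteins E and J (Apoe and clusterin, Clu) and of beta-synuclein (Sncb) were followed in the hippocampus of old mice. Every probe set that the platform annotation gave to exactly 1 of these genes was taken, which gave 10 probe sets for 7 genes, out of 12422 probe sets for 8251 named genes, array controls aside. An eighth gene, Bace1, was not analysed here. Hippocampal RNA came from male C57BL/6 mice aged 30 months, 5 of them kept on long-term calorie restriction and 5 fed a control diet, with 1 mouse on each of 10 Affymetrix oligonucleotide arrays. The sources used here give neither the degree nor the start of the restriction. A probe set is several short probes that read a transcript together, and its MAS5 signal is its brightness on a linear scale. Some identifiers carry the mark s, f, i or r, which says that the choice of probes was limited, for s and f because they can match several transcripts. Where a gene had several probe sets, this mark tells them apart here.

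App is a membrane protein that secretases cut. Cleavage by beta-secretase and then by gamma-secretase, whose catalytic subunit is a presenilin, releases the amyloid beta peptide, while Aplp1 and Aplp2 are relatives of App that lack the amyloid beta sequence. Apoe and Clu are secreted lipid-binding proteins made largely by astrocytes in the brain, and both bind amyloid beta. Sncb is a presynaptic protein of neurons and a close relative of alpha-synuclein. In whole hippocampus, fewer cells of a type and less RNA per cell cannot be told apart.

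The arrays of the diets also differed in RNA and array quality. Control probe sets at the 3' end of Gapdh were 82.7 and 160.7 times as bright as those at its 5' end on calorie restricted replicates 3 and 5, against 1.24 to 1.98 times on the other 3 calorie restricted arrays and 0.815 to 1.53 times on control arrays. The log2 of this ratio, averaged over Gapdh and Actb, was 2.88 ± 2.57 (SD, n = 5) in calorie restricted mice and 0.16 ± 0.24 (SD, n = 5) in controls, with no overlap between the diets. The 9 probe sets for spike-in RNA averaged 13.05 ± 0.47 on the log2 scale on calorie restricted arrays and 11.12 ± 0.56 on control arrays, also without overlap. The median of an array was 7.49 ± 0.18 on the log2 scale under calorie restriction and 7.84 ± 0.05 on the control diet. Each of the 3 measures had an exact two-sided permutation p of 0.00794, the smallest that 5 against 5 arrays can give, and the same value adjusted over the 3.

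Diets were compared on log2 signals in limma over the 7453 probe sets that passed a filter on mean signal, and a probe set passed at an adjusted p under 0.05. Of the 10 probe sets, 7 were bright enough to be tested and cover App, Aplp2, Psen2, Apoe, Clu and Sncb. In calorie restricted mice 1 of the 7 was higher, a Clu probe set, and 0 were lower by limma. With no adjustment 1 of the 7 lay under 0.05 in each direction, where 31.6% of all tested probe sets did so. The change was below 0 for 3 of the 7 and for 60.6% of all tested. Over the whole array 11.8% of tested probe sets passed, 4.11% higher and 7.74% lower, so the share among these genes was near the background. The split depended on scaling, with 306 probe sets higher and 577 lower as deposited, 849 and 190 with arrays centred on their medians, and 322 and 279 under quantile normalization. Using for each of the 6 tested genes the probe set with the highest mean signal, 0 passed in limma and 1, Sncb, had a p under 0.05 before adjustment. Each change given is a log2 difference, calorie restricted minus control. Over all tested probe sets this change had a median of -0.15, and values relative to that median are given where named.

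**Figure D1:**
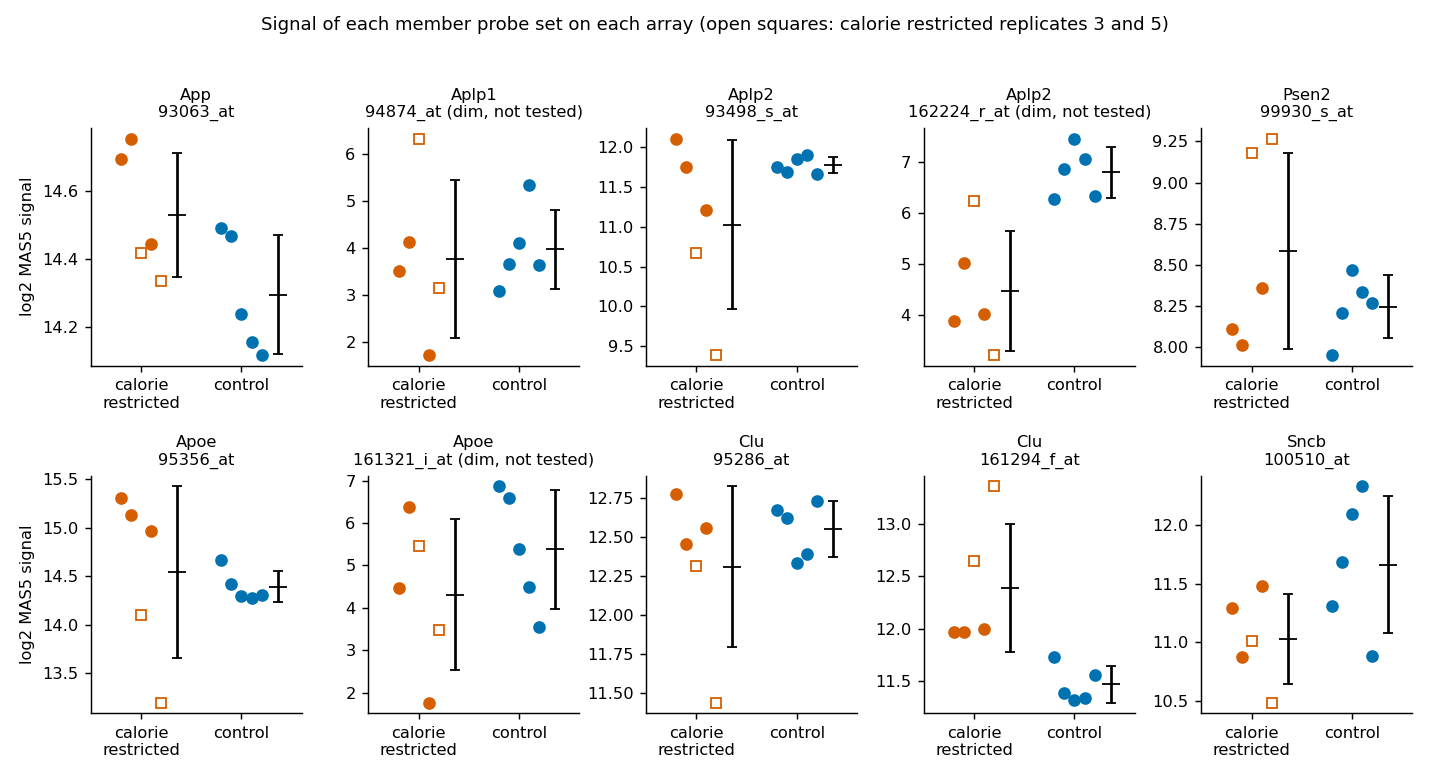
Log2 MAS5 signal of each of the 10 probe sets (vertical axis, its own scale in each panel) on the 5 calorie restricted and the 5 control arrays, 1 point per mouse, with mean and SD in black. Open squares are calorie restricted replicates 3 and 5. Among tested probe sets, only the Clu probe set marked f has diets that do not overlap.

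App, the amyloid precursor protein, had 1 probe set. Its signal was 26511, 27639, 21899, 22292 and 20689 in calorie restricted replicates 1 to 5, against 23020, 22672, 19341, 18231 and 17777 in control replicates 1 to 5. Calorie restricted replicates 1 and 2 lay above all control arrays, and the other 3 lay within the control range. It averaged 14.53 ± 0.18 (SD, n = 5) in calorie restricted mice and 14.29 ± 0.18 (SD, n = 5) in controls on the log2 scale, a change of 0.24 ± 0.16 (SE; 95% interval -0.11 to 0.58; limma adjusted p = 0.322). The direction depended on scaling. With each array centred on its median log2 signal App had 0.59 and passed (limma adjusted p = 0.0331), whereas under quantile normalization it had -0.47 (limma adjusted p = 0.102). Median centring moved the median change over the array to 0.20 and quantile normalization to -0.02, so relative to those medians the direction still differed.

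Aplp2, the more broadly expressed App relative, had 2 probe sets, both with a lower mean in calorie restricted mice. The probe set marked s had signals of 4424, 3442, 1633, 2376 and 670.3 in calorie restricted replicates 1 to 5, against 3452, 3320, 3701, 3850 and 3257 in control mice. The control arrays were within a narrow range, while calorie restricted replicates 3, 4 and 5 lay below it and replicate 1 above it. The change was -0.75 ± 0.41 (SE; limma adjusted p = 0.224). It was -0.085 without calorie restricted replicates 3 and 5 (limma adjusted p = 0.790) and 0.30 with the 3' to 5' ratio as a covariate (limma adjusted p = 0.468).

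The Aplp2 probe set marked r lay below the filter on signal. It had 14.7, 32.2, 75.6, 16.1 and 9.28 in calorie restricted replicates 1 to 5, against 77.8, 116.3, 175.7, 132.9 and 80.0 in control mice. All calorie restricted arrays were below all control arrays, with replicate 3 just below the lowest control value. Among tested probe sets, which this one is not, 9.35% were lower in this way. In a fit with no filter the change was -2.33 ± 0.57 (SE; limma adjusted p = 0.0339). Of all 12422 probe sets in that fit, 259 were higher and 531 lower. Background signal was not analysed, so the size of a change at this brightness is uncertain. The mean of both Aplp2 probe sets, fitted per gene, changed by -1.54 and passed (limma adjusted p = 0.0255). This mean includes the dim probe set, and the s probe set alone did not pass.

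Aplp1, a neuronal App relative, was read by a single dim probe set. Its signal ran from 3.30 to 80.7 in calorie restricted and from 8.50 to 40.6 in control mice. The calorie restricted median was 11.3 and the control median 12.7. The ranges overlapped, and in the fit with no filter the change was -0.20 ± 0.77 (SE; limma adjusted p = 0.897). No difference in Aplp1 was detected, and detection calls were not analysed.

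Psen2, a catalytic subunit of gamma-secretase, was read by a probe set marked s, so other transcripts may add to its signal. Signals were 276.9, 258.9, 579.2, 328.2 and 615.9 in calorie restricted replicates 1 to 5. Control mice had 248.0, 295.8, 354.8, 323.1 and 308.0. Calorie restricted replicates 3 and 5 stood above all other arrays, and replicates 1, 2 and 4 lay within the control range. The change was 0.34 ± 0.27 (SE; 95% interval -0.26 to 0.93; limma adjusted p = 0.413). Without calorie restricted replicates 3 and 5 it was -0.085 (limma adjusted p = 0.820), and with the 3' to 5' ratio as a covariate it was -0.27 (limma adjusted p = 0.510).

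Apoe, the main apolipoprotein of the brain, had a bright probe set with no mark. Signals were 40602, 35973, 17582, 32125 and 9366 in calorie restricted replicates 1 to 5, against 26025, 21868, 20116, 19861 and 20211 in control mice. Calorie restricted replicates 1, 2 and 4 lay above all control arrays, and replicates 3 and 5 lay below all of them. It averaged 14.54 ± 0.89 (SD, n = 5) in calorie restricted mice and 14.39 ± 0.16 (SD, n = 5) in controls on the log2 scale, a change of 0.15 ± 0.35 (SE; limma adjusted p = 0.791).

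Without calorie restricted replicates 3 and 5 the Apoe change was 0.75 ± 0.15 (SE, 3 against 5 arrays) and passed (limma adjusted p = 0.0154). In that fit 3.98% of all tested probe sets were higher and 6.52% lower. It also passed with the 3' to 5' ratio as a covariate, at 1.05 ± 0.21 (SE; limma adjusted p = 0.0224). This log2 ratio was 5.20 and 6.11 on replicates 3 and 5 and at most 1.52 on the other arrays. Both fits therefore depend on the same arrays and are not independent. Under quantile normalization the Apoe change was -0.57 on all arrays (limma adjusted p = 0.299) and 0.040 without replicates 3 and 5 (limma adjusted p = 0.894). With spike-in signal added to the 3' to 5' ratio Apoe had 0.68 (limma adjusted p = 0.508), in a fit where 0 of all 7453 tested probe sets passed. It also missed the threshold with array weights (0.49, limma adjusted p = 0.157) and with centred arrays (0.50, limma adjusted p = 0.272). It passed with arrays centred on their medians and replicates 3 and 5 left out, at 1.01 (limma adjusted p = 0.00458), an alternative added after the data were seen. The second Apoe probe set, marked i, was dim, at 3.40 to 82.7 in calorie restricted and 11.8 to 116.6 in control mice, and its ranges overlapped.

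Clu, a secreted chaperone that also carries lipids, had 2 bright probe sets that differed in direction. The unmarked probe set had 7019, 5615, 5098, 6020 and 2777 in calorie restricted replicates 1 to 5, against 6536, 6309, 5151, 5372 and 6788 in control mice. Calorie restricted replicate 5 was far below the others, replicate 3 was just below the control range, and replicate 1 was above it. The change was -0.24 ± 0.23 (SE; 95% interval -0.74 to 0.26; limma adjusted p = 0.495).

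The Clu probe set marked f had 4009, 4013, 6423, 4088 and 10510 in calorie restricted replicates 1 to 5, against 3387, 2682, 2549, 2595 and 3020 in control mice. All calorie restricted arrays lay above all control arrays, which held for 4.96% of all tested probe sets (14.3% when either direction is counted), and replicates 3 and 5 were the brightest. This probe set rose by 0.92 ± 0.26 (SE, n = 5 per diet; 1.90-fold; 1.08 relative to the median change; limma adjusted p = 0.0416). On 3 against 5 arrays, with calorie restricted replicates 3 and 5 left out, it passed at 0.51 (limma adjusted p = 0.0349). It had 0.30 with the 3' to 5' ratio as a covariate (limma adjusted p = 0.326). With the spike-in signal added, where 0 of all 7453 tested probe sets passed, it had -0.042 (limma adjusted p = 0.971). It also missed the threshold under quantile normalization (0.66, limma adjusted p = 0.0790) and in 6 of the 10 fits that left out 1 array, each control array and calorie restricted replicate 3 (limma adjusted p up to 0.0939).

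The disagreement between both Clu probe sets was tested directly, as the ratio of the f probe set to the unmarked one within each array. Values were 0.571, 0.715, 1.26, 0.679 and 3.79 in calorie restricted replicates 1 to 5, against 0.518, 0.425, 0.495, 0.483 and 0.445 in control mice. It was higher on all 5 calorie restricted arrays than on any control array, with the highest values on replicates 3 and 5. The log2 ratio differed by 1.16 between the diets (exact two-sided permutation p = 0.00794, the smallest possible; 1 pair tested). It differed by 0.47 without replicates 3 and 5 (exact permutation p = 0.0357, the smallest that 3 against 5 arrays can give). The probe sets therefore changed unequally, and a single diet difference for Clu cannot be read from them.

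Sncb, beta-synuclein, had 1 probe set. Its signal was 2512, 1873, 2064, 2852 and 1435 in calorie restricted replicates 1 to 5, against 2543, 3296, 4361, 5135 and 1893 in control mice. Control replicates 3 and 4 were the brightest of all arrays, while control replicates 1 and 5 lay within the calorie restricted range. The change was -0.63 ± 0.28 (SE; 95% interval -1.24 to -0.02; unadjusted p = 0.0429; limma adjusted p = 0.145), or -0.48 relative to the median change, and it did not pass. With the 3' to 5' ratio as a covariate it was -0.31 (limma adjusted p = 0.600). With the spike-in signal added, where 0 of all 7453 tested probe sets passed, it was 0.94 (limma adjusted p = 0.473).

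**Figure D2:**
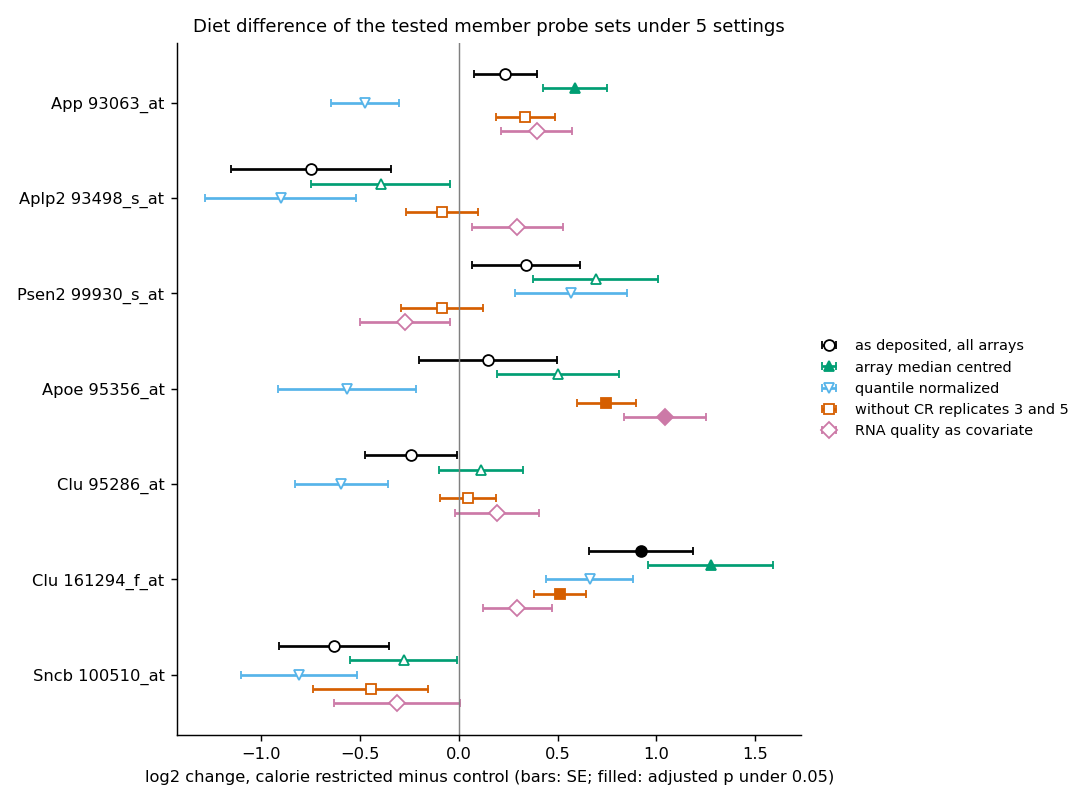
Log2 change (calorie restricted minus control, horizontal axis) with its SE for the 7 tested probe sets under 5 settings, filled where the limma adjusted p was under 0.05. Apoe is filled only without calorie restricted replicates 3 and 5 and with RNA quality as a covariate, App only with arrays centred on their medians, and the Clu probe set marked f on all arrays, with centring and without replicates 3 and 5.

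Over the array the change differed with brightness. Of the 7 tested probe sets 6 lay in the brightest quintile of all tested ones, and Psen2 in quintile 2 counted from the dim end. In the brightest quintile the median change of all 1491 probe sets was 0.13, with 11.1% higher and 2.15% lower, while in the dimmest quintile it was -0.42, with 1.27% higher and 7.78% lower. The 6 probe sets of the brightest quintile lay on both sides of its median, with App, Apoe and the f probe set of Clu above it and Aplp2, unmarked Clu and Sncb below it. In the quintile of Psen2, which had 0.34, the median change was -0.30. Quantile normalization gives every array the same distribution of values, and whether the trend with brightness remained after it was not tested.

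Calorie restricted replicates 3 and 5 were the extremes for 5 of the 7 tested probe sets. They had the 2 highest values of all 10 arrays for Psen2 and the f probe set of Clu, and the 2 lowest for the s probe set of Aplp2 and the unmarked ones of Apoe and Clu. App and Sncb did not follow this pattern, since replicate 3 was inside the control range for both. The part of RNA quality in these differences was not tested beyond the fits with the covariate and without those arrays.

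**Figure D3:**
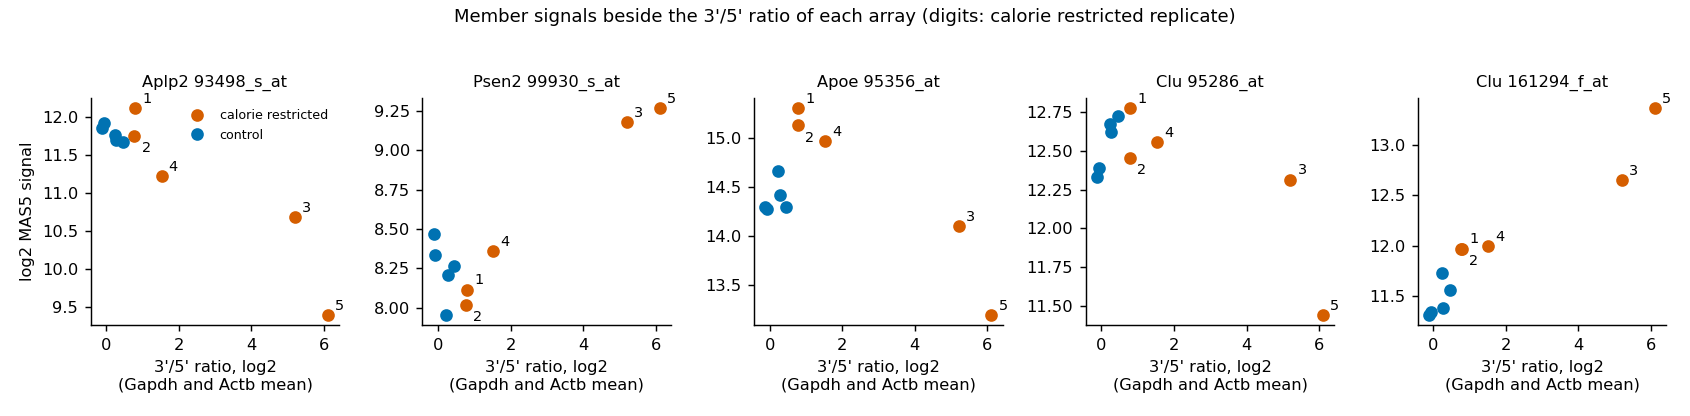
Log2 MAS5 signal of 5 probe sets (vertical axis, its own scale in each panel) against the log2 of the 3' to 5' ratio averaged over Gapdh and Actb (horizontal axis), 1 point per array, with calorie restricted arrays numbered by replicate. Replicates 3 and 5, at 5.20 and 6.11 on the horizontal axis, hold the lowest signals of Aplp2, Apoe and unmarked Clu and the highest of Psen2 and the Clu probe set marked f.

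The genes whose profile over the 10 arrays was most like that of each member were found from log2 signals centred on each probe set's mean, by the root mean square difference. For App these were Hsp90aa1, a cytosolic chaperone, at 0.13 log2 units and Golga3, a Golgi protein, at 0.14, where the median over all genes was 0.52. For Apoe they were Uchl1, a ubiquitin hydrolase of neurons, at 0.13 and Psap, the precursor of the lysosomal saposins, at 0.14, where the median was 0.75. The unmarked Clu probe set was closest to Mcee at 0.09 and Tiprl at 0.10, and Aplp2 to Rnf5 at 0.18 and Bckdk at 0.19. Psen2 was closest to Ndufaf4 at 0.14 and D430019H16Rik at 0.16, and Sncb to Irf2bp1 and Reep5 at 0.21 and 0.23. The diet difference is part of the profile these 12 genes were chosen on, so their own diet tests are not given here. Uchl1 is also one of the related genes, and its tests are given with those.

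Of other genes tied to these pathways, 56 of 88 listed in 6 groups were tested, 2 rose and 2 fell. That is 7.14% against 11.8% over all tested probe sets, and their median change was 0.06. Of 7 genes of amyloid precursor processing, Rtn3, a reticulon that binds beta-secretase, rose by 0.78 ± 0.17 (SE; limma adjusted p = 0.0183) and 6 did not pass. Its probe set carries the mark f, and the other tested Rtn3 probe set had 0.08 (limma adjusted p = 0.753). The f probe set had 0.30 under quantile normalization (limma adjusted p = 0.219) and 0.61 with the 3' to 5' ratio as a covariate (limma adjusted p = 0.0819). Of 13 genes of amyloid precursor binding and trafficking, Sorl1, a sorting receptor that steers App away from cleavage, fell by 2.71 ± 0.52 (SE; limma adjusted p = 0.0116) and 12 did not pass. Sorl1 averaged 6.00 ± 1.27 (SD, n = 5) in calorie restricted mice and 8.71 ± 0.32 (SD, n = 5) in controls on the log2 scale, so the calorie restricted mean was below 6.85, the lowest mean tested. Sorl1 entered the test only through its control arrays, so its fall is not independent of the filter and its size is uncertain. With the 3' to 5' ratio as a covariate its change was -1.52, which missed the threshold (limma adjusted p = 0.0588). Under the same filter Sorl1 passed with quantile normalization at -2.36 (limma adjusted p = 0.0149). It also passed without replicates 3 and 5, at -1.90 (limma adjusted p = 0.00974).

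Of 12 genes of apolipoproteins, lipoprotein receptors and lipid transport, Npc1, which moves cholesterol out of lysosomes, rose by 0.76 ± 0.16 (SE; limma adjusted p = 0.0153) and 11 did not pass. Npc1 also passed under quantile normalization at 0.70 (limma adjusted p = 0.0182) and at 0.63 on the arrays without replicates 3 and 5 (limma adjusted p = 0.0221), and had 0.57 with the 3' to 5' ratio as a covariate (limma adjusted p = 0.0643). Of 7 genes of synucleins and Parkinson disease, Dnajc5, a chaperone of synaptic vesicles, fell by 1.56 ± 0.45 (SE; limma adjusted p = 0.0428), with overlapping diets, and 6 did not pass. Dnajc5 missed the threshold without replicates 3 and 5, under quantile normalization and with the covariate (limma adjusted p = 0.133, 0.0671 and 0.337 in this order). None of 6 genes of amyloid peptide degradation and binding passed in limma. A2m, a protease inhibitor, had -0.91 ± 0.30 (SE) and Cst3, a secreted cysteine protease inhibitor, had 0.45 ± 0.18 (limma adjusted p = 0.0622 and 0.108). None of 12 genes of tau and its kinases and phosphatase passed in limma either, with Cdk5r1, the activator of Cdk5, at -0.85 ± 0.35 (SE) and the kinase Mark2 at 0.67 ± 0.28 (limma adjusted p = 0.122 and 0.124). Before adjustment, 9 of the 56 were higher and 6 lower at a limma p under 0.05. Of all 7453 tested probe sets, 809 were higher and 1543 lower at that level, 31.6% in either direction.

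**Figure D4:**
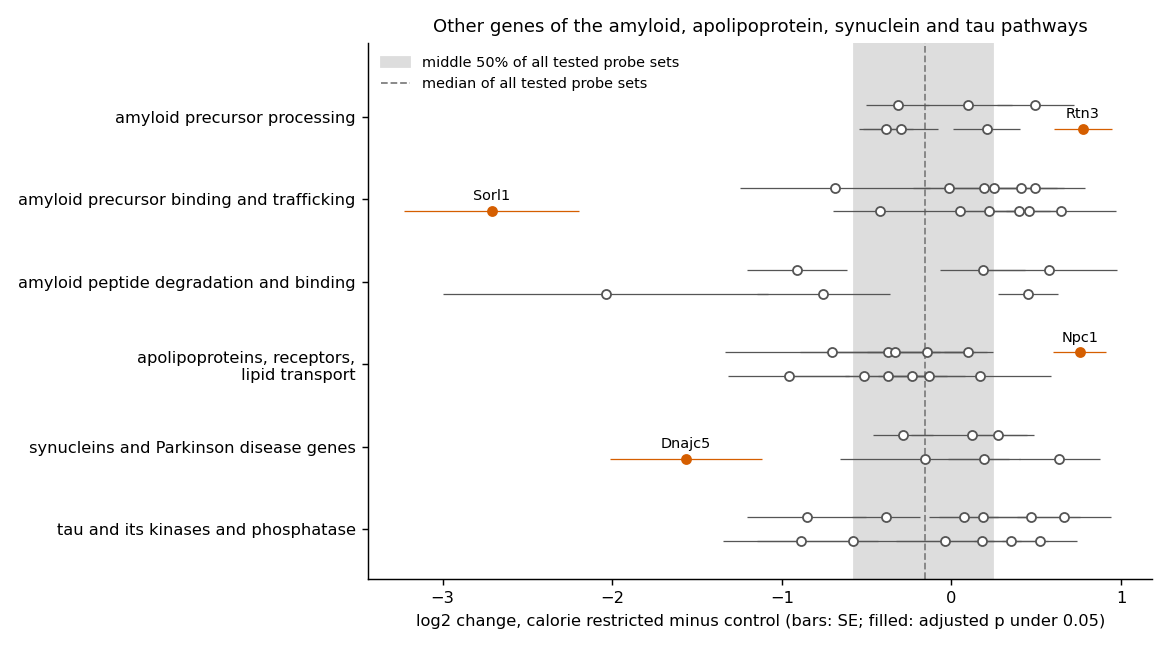
Log2 change (calorie restricted minus control, horizontal axis) with its SE for the tested genes of 6 pathway groups, 1 probe set per gene, with Vps35 drawn in 2 groups. Filled points had a limma adjusted p under 0.05. The grey band runs between the quartiles of all tested probe sets and the dashed line is their median, -0.15. Rtn3 and Npc1 lie to the right of the band and Sorl1 and Dnajc5 to the left.

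Among 47 tested markers of 7 cell types, 2 were higher and 12 lower in calorie restricted mice, where 4.11% of all tested probe sets were higher and 7.74% lower. Of these 12, 4 had a calorie restricted mean below the lowest mean tested and entered the test only through their control arrays. With the 3' to 5' ratio as a covariate 1 marker was higher and 2 were lower, where 155 and 178 of all 7453 probe sets were. Without calorie restricted replicates 3 and 5 there were 2 markers higher and 9 lower, where 3.98% and 6.52% of all tested probe sets were. Of 10 astrocyte markers 1 rose and 3 fell, 2 of the 3 with such a low mean. The astrocyte gene that rose, Glul, had another probe set that fell (1.87 and -0.68, limma adjusted p = 0.00662 and 0.0254). The summed signal of the astrocyte markers was 32385 to 43191 in calorie restricted and 25293 to 30914 in control mice, without overlap. Of single tested probe sets, 4.96% were higher without overlap. The brightest astrocyte markers, Aldoc, Sparcl1 and Gja1, did not pass (limma adjusted p = 0.199, 0.260 and 0.170). Under quantile normalization their changes were -0.027, -0.092 and 0.38.

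The counts of the other cell types stand beside 4.11% higher and 7.74% lower over all tested probe sets. Of 10 neuronal markers 1 rose and 3 fell, 1 of the 3 with a low mean, with sums of 51889 to 62384 in calorie restricted and 44123 to 57217 in control mice. Of 8 microglial markers 0 rose and 2 fell, with sums of 4912 to 9063 in calorie restricted and 7217 to 10623 in control mice. Of 7 oligodendrocyte markers 0 rose and 3 fell, 1 of the 3 with a low mean, with sums of 19298 to 27484 in calorie restricted and 23366 to 25798 in control mice. Of 4 choroid plexus markers 0 rose and 1 fell, with sums of 1687 to 19580 in calorie restricted and 5322 to 16197 in control mice. Of 6 endothelial and 2 erythrocyte markers 0 passed in limma, and 0 had a p under 0.05 before adjustment. A sum is led by its brightest probe sets. The part of the tested markers in the differences of Apoe, Clu, App and Sncb was not tested.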

How the data were processed

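The deposited table gives an intensity for each of 12488 probe sets on each of 10 arrays. Per the submitters' processing notes, the authors made these intensities with MAS5, in a version not given in the sources used here. Without the lowest and highest 2%, the mean intensity was 500.2 to 500.4 on every array, so the authors' scaling had already brought arrays to a common target.

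The deposited values were floored at 1 (41 of 124880 lay below it) and log2 taken. The 66 control probe sets were left out of tests. Of the other 12422, the 7453 with a mean log2 signal at or above the 40th percentile were tested in limma 3.58.1 (R 4.3.3; lmFit, eBayes with a variance trend), with Benjamini-Hochberg adjustment over all of them. Names came from the platform annotation, updated by gene number (10817 of 10833 with 1 symbol matched RefSeq). The sources used here name no genome build, so no positions are printed. Single values were compared with exact permutation tests (SciPy 1.17.1). The fit was tested on simulated data. The number of arrays limits the precision.

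The genes followed, the related gene lists and the alternatives were chosen with earlier results of these data known. All members were named, with the genes of each related list that passed or otherwise the 2 with the smallest p, and the 2 genes with the closest profile to each member. The alternatives changed the scaling, the filter, the floor, the variance model, array weights, covariates, a replicate block, the probe sets per gene and the arrays used. Another 2 that combine a scaling with leaving out calorie restricted replicates 3 and 5 were added after the data were seen.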

Additional observations from a re-analysis of the deposited data

How the results depend on the processing

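Across 154 refits (7 probe sets under 22 alternatives), 121 kept direction and side of the threshold, 12 lost a call, all of the f probe set of Clu, 5 gained a call (App and Apoe) and 16 changed direction. The number of these probe sets higher was 1 as reported. It was 0 under quantile normalization, without the variance trend, with both covariates, with quantile normalization without calorie restricted replicates 3 and 5, and with no filter, where 1 was lower (Aplp2, marked r). It was 2 with arrays centred on their medians and 2 without replicates 3 and 5, and 3 with both of these, and it ran from 0 to 1 when 1 array was left out. Of all 7453 tested probe sets, 849 were higher with centring, 297 without replicates 3 and 5 and 705 with both, against 306 as reported. With the replicate number as a block the number of these probe sets higher was 0 (the f probe set of Clu, limma adjusted p = 0.0556) and 195 and 345 of all probe sets were higher and lower. The titles do not say that numbers pair mice, deviations of same-numbered arrays correlated at -0.08 to 0.17, and 1 of 5 calorie restricted arrays correlated best with its own number.

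Changes that turned direction, none of them past the threshold, were as follows. Under quantile normalization App had -0.47 (-0.29 without replicates 3 and 5) and Apoe -0.57. With RNA quality as a covariate Aplp2 had 0.30, Psen2 -0.27 and unmarked Clu 0.19. With spike-in signal added App had -0.091, Aplp2 0.15, the f probe set of Clu -0.042 and Sncb 0.94, where both covariates together accounted for an R2 of 0.85 of diet. Without replicates 3 and 5 Psen2 had -0.085 and unmarked Clu 0.046. With arrays centred unmarked Clu had 0.11, and with replicates 3 and 5 also left out it had 0.31 and Aplp2 had 0.18. With 1 array left out Apoe ran from -0.042 (without calorie restricted replicate 1) to 0.49. With the probe sets of a gene averaged Apoe had -0.46, Clu had 0.34, and 1 gene, Aplp2, was lower. The cause of these turns was not tested.

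Over all probe sets, 306 were higher and 577 lower. These counts were 322 and 279 under quantile normalization, 849 and 190 with arrays centred, 155 and 178 with RNA quality as a covariate, 0 and 0 with both covariates (452 and 455 at an unadjusted p under 0.05), 173 and 209 under quantile normalization without replicates 3 and 5, and 705 and 176 with centring without them. With no filter they were 259 and 531 of 12422. With 1 array left out they ran from 110 to 412 and from 143 to 839. The lower count moved by over 1.5 times without calorie restricted replicate 3 (230) or 4 (340) and without control replicates 1 to 5 (236, 143, 161, 178 and 346), and the higher count without calorie restricted replicate 3 (119) and control replicates 1 to 4 (185, 110, 113 and 123). Of the 56 related genes, 2 were higher and 2 lower, against 1 and 1 under quantile normalization, 4 and 0 with RNA quality as a covariate, and 9 and 2 without replicates 3 and 5.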

Other observations

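Without calorie restricted replicates 3 and 5, 9 of the 56 related genes were higher and 2 lower in calorie restricted mice, where 297 (3.98%) and 486 (6.52%) of all 7453 tested probe sets were higher and lower. These genes were picked after their values were seen. Besides Rtn3 and Npc1, the higher ones included Stub1, a ubiquitin ligase and chaperone partner, at 0.77 (limma adjusted p = 0.0118) and Uchl1 at 0.73 (limma adjusted p = 0.0200). The profile of Uchl1 was the closest to that of Apoe, which also passed in this fit, so its pass is not independent of that of Apoe. The phosphatase scaffold Ppp2r1a had 0.61 (limma adjusted p = 0.0291), Mark2 0.93 (limma adjusted p = 0.0420; its other probe set 0.65, 0.191) and the endocytic adaptor Bin1 0.48 (limma adjusted p = 0.0423; its other probe set 0.28, 0.327). Itm2c, a membrane protein that binds App, had 0.45 (limma adjusted p = 0.0475), and the kinesin light chain Klc1 had 0.62 (limma adjusted p = 0.0488). The other 2 probe sets of Klc1 had 0.78 (limma adjusted p = 0.0167) and 0.056 (limma adjusted p = 0.865) in that fit. On all arrays 1 probe set of Bin1 and 2 of Klc1 had a change opposite in sign to the brightest one. The lower ones were Sorl1, which entered the test only through its control arrays, and A2m, which had -1.12 (limma adjusted p = 0.0462). On all calorie restricted arrays A2m averaged 6.90 on the log2 scale, close to 6.85, the lowest mean tested. The fall of A2m may therefore also not be independent of the filter, and its size is uncertain. On all arrays Stub1 had -0.16 (limma adjusted p = 0.851) and Uchl1 had 0.12 (limma adjusted p = 0.835).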
